A study of Drosophila melanogaster with 3 samples.

Results

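The regions described here are the 200 strongest reproducible peaks of the Drosophila melanogaster protein CG14710, out of 9194 reproducible peaks in all. They were chosen by the signal value that the authors' peak caller gave each peak in the list filtered by irreproducible discovery rate (IDR), a measure of how well peaks recur between replicates. The peak at rank 200, the last one taken, had a signal of 3340.4, and the peak at rank 201, the first one left out, had 3331.5. Since signal chose the members, and all 3 replicates went into the list, the values are given as a description and without tests.

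Chromatin immunoprecipitation followed by sequencing (ChIP-seq) was carried out on whole embryos of both sexes, pooled, aged 0 to 14 hours, from a transgenic line that stably expresses CG14710 fused at its C-terminal end to green fluorescent protein (GFP). Sonicated chromatin, 200 to 800 bp in size, was precipitated with an antibody against GFP. There were 3 biological replicates of this 1 group, all set against 1 control file. The tagged protein comes from a transgene, whole embryos mix all cell types and stages of that age range, and embryos lacking the tagged protein were not analysed here. Enrichment that does not depend on the tagged protein was therefore not tested.

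CG14710 encodes a zinc finger protein of the ZAD family, named after the zinc-finger-associated domain, a family that is greatly expanded in insects. The ZAD lets such proteins pair with one another, and the zinc fingers recognise DNA. Several better known members of the family sit at the promoters of housekeeping genes or at chromatin domain borders. A peak is a stretch of the genome with more precipitated reads than the control, and its summit is the point of highest enrichment. The transcription start site (TSS) is where RNA synthesis of a gene begins.

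The 200 peaks changed in character along the list, over a stretch that ended near rank 100. Peaks at ranks 1 to 100 were wide, lay close upstream of start sites, kept nearly the same order in every replicate and often held an inverted repeat at the summit. The second 100 peaks were narrow, lay farther from start sites or away from them, had summits rich in A and T, and changed places between replicates. In width, position and base composition they were close to the peaks next in rank, at ranks 201 to 400.

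The inverted repeat is GTGTG, then 2 bases of any kind, then CACAC, which reads the same on both strands apart from the middle. It was picked out after the 8-base words at the summits had been seen. Stretches of 28 bases are shown, from the RefSeq genome of the dm6 assembly (Release 6), plus strand, 5′ to 3′, with the repeat and its 2 middle bases in capitals. The first 6 hold exact copies and show how the middle bases and the sequence around them vary. The stretches at PpV, CG17141, CG7945 and CG3224 with Ctr1A are intergenic, that at Mnn1 is in the non-coding part of an exon of Mnn1, and that at NitFhit is in an intron of the neighbouring gene Gk1.
PpV (rank 13), chrX:6373125-6373152: tatacttgGTGTGTACACACtgcgtagc
Mnn1 (rank 20), chr2L:7056310-7056337: cgtgctggGTGTGGACACACtggcacgc
CG17141 (rank 23), chr3R:22747607-22747634: aggattgtGTGTGGTCACACtagtgggg
CG7945 (rank 25), chr3L:15524183-15524210: gaaagttaGTGTGTACACACattagttc
CG3224 and Ctr1A (rank 45), chrX:6661463-6661490: aaatcgtgGTGTGTGCACACtgatacac
NitFhit (rank 47), chr3L:203700-203727: ttggttgtGTGTGTACACACttgtttgc

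The strongest peak of all, at CG3764, held the repeat with 1 mismatch, as did those at CG7275 and Pex19, and capitals again mark the repeat with its middle bases. The first and second of these stretches are intergenic and the third lies in the non-coding part of an exon of Pex19.
CG3764 (rank 1), chr3L:17012589-17012616: gcgcgccaGTGTGTGCACGCcaagtggc
CG7275 (rank 5), chr3L:15498910-15498937: ttgcattaGTGTTACCACACccactact
Pex19 (rank 15), chr2L:12093715-12093742: gtgagtcaGTGTAGCCACACctgttcag

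The peaks at ranks 2 to 4 had no copy within 50 bp of the summit, even with 2 mismatches, and are shown as the 29 bases around the summit, with no capitals. The first and second are intergenic, and the third lies in the non-coding part of an exon of CG15435.
Nuak (rank 2), chr3R:10264043-10264071: agggcgaatcgtgaatttctttcaacggt
CG1317 and CG8993 (rank 3), chr3L:2372035-2372063: aattgaaaattaaaaaagattacatagtt
CG15435 and mRpL27 (rank 4), chr2L:4459740-4459768: tgcttaaataaactatcgtcttagtcatt

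In the second 100 peaks the leading 8-base word was ATTTAAAA, marked in capitals in the next 4 stretches, the first of which holds it on the minus strand. The first lies in an intron of CG11309, and the others are intergenic. The peak at rank 118 had no TSS within 500 bp.
CG11309 and CG7632 (rank 109), chr3L:21304508-21304535: acatttaatgTTTTAAATgaattttatt
Peak at rank 118, chr2L:2202348-2202375: acttcaatacATTTAAAAtaatcgtaaa
C1GalTA (rank 127), chr2L:8951393-8951420: taaatatattATTTAAAAtatcagttcc
RluA-1 (rank 130), chr2L:10474522-10474549: ggtaaaacaaATTTAAAAactttaacat

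The repeat lay within 50 bp of the summit, with at most 1 mismatch in its 10 fixed bases, at 43 of the first 100 peaks (95% Wilson interval 33.7% to 52.8%) and at 5 of the second 100 (2.15% to 11.2%). Over the 200 peaks the share was 24%, against 1.02% of the other 8994 reproducible peaks and 1.52% of all 9194. Windows 500 bp to either side of the first 100 summits held it in 0.5% of cases, and windows at the 19268 start sites of protein-coding genes in 0.996%. Among the other reproducible peaks that also lay within 500 bp of a TSS it was 1.1%, a share close to that of all other peaks. These intervals and those below cover counting error only.

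Exact copies were still more concentrated. Of the 47 summits with an exact copy within 50 bp in the whole reproducible list, 22 were at ranks 1 to 100 and 26 at ranks 1 to 200. The exact share was 22% in the first 100 peaks, 4% in the second 100 and 0.233% at the other peaks. Within the first 100 the repeat was about as common in both blocks of 50 ranks. It was at 20 of 50 peaks at ranks 1 to 50 and at 23 of 50 at ranks 51 to 100, followed by 4 of the next 50 and 1 of the last 50 of the 200. Peaks at ranks 94 to 100 lacked it, so blocks of 50 ranks do not show where it thinned out. Peaks at ranks 1 to 100 with the repeat had a median signal of 20307 and a median width of 1312 bp, against 21968 and 1297 bp for the 57 without it. Median G + C was 45.5% with the repeat and 37.6% without it, and the nearest start site was at a median of -30 bp with it and -69 bp without it. At least 2 genes lay within 500 bp at 15 of the 43 peaks with the repeat and at 36 of the 57 without it. The letters of the repeat itself add to G + C. On the arms whose 8-base words were ranked, 2L, 3L and 4, the repeat was at 19 of 37 of the first 100 summits (51.4%), and on 3R and X, which the ranking did not use, at 12 of 42 (28.6%, 17.2% to 43.6%). On 2R, also unused, it was at 12 of 21 (57.1%).

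A spacer of 2 bases prevailed. With 2 bases between the 5-base units, 43 of the first 100 summits matched with at most 1 mismatch, while spacers of 1, 3 and 5 bases gave 0 matches each, and a spacer of 4 bases gave 7. A spacer of 0 bases gave 24, of which 22 also held the form with 2 bases, because the forms overlap in letters. With the units in the other order, or both in the same direction, no spacing from 0 to 8 bases gave more than 6. In the 22 exact copies the middle bases, read on either strand, were CA in 8, TA in 7, AC in 5, GC in 1 and GA in 1. The centre of the repeat lay at a median of 20.5 bp from the summit, and at 28 of the 43 peaks this centre was within 25 bp. At the 41 of these peaks that had a TSS within 500 bp, it lay at a median of -16.5 bp from the nearest start site, negative values being upstream, and at 37 it was within 100 bp.

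The 7 main chromosome arms hold 241 exact copies, of which 63 lie within 500 bp of a TSS. Of the 241, 70 (29%) were inside a reproducible peak interval and 39 (16.2%) inside the interval of one of the 200, so most exact copies in the genome were outside the reproducible peaks. With 1 of the middle pairs, the repeat holds all but the last T of core promoter motif 1, GGTCACACT, the sequence known for the ZAD protein M1BP. Together with the bases next to them, 5 of the 22 exact copies held the whole motif. That motif was at 14 of the first 100 summits, at 1 of the second 100, at 2.43% of the other peaks and at 3.64% of the coding start sites, counted on both strands. A match describes letters in a window and does not show which protein binds there.

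**Figure D1:**
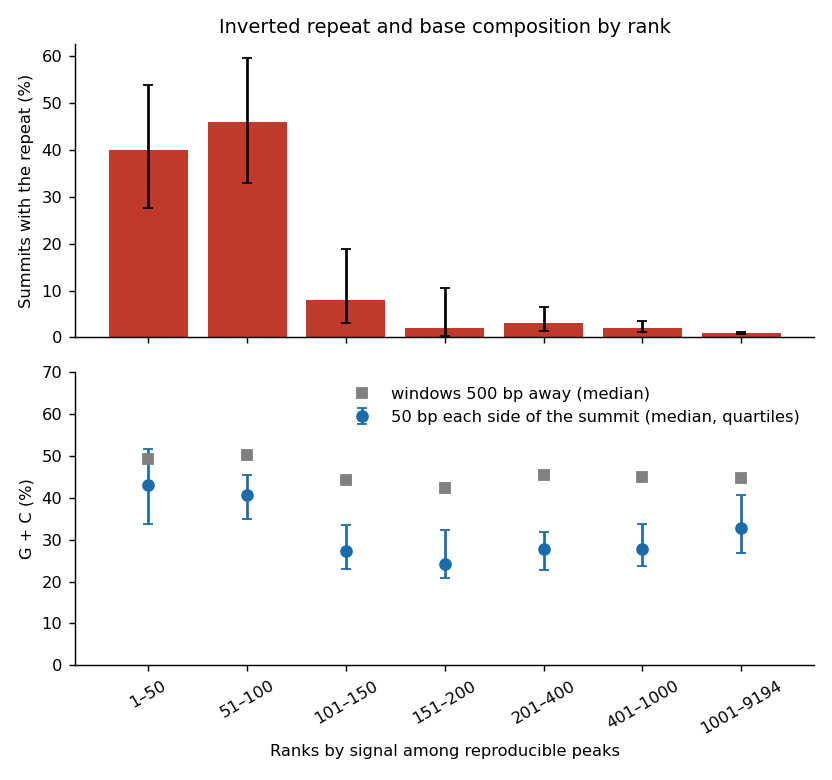
Share of summits with the inverted repeat within 50 bp at no more than 1 mismatch (upper panel, percent, bars with 95% Wilson intervals) and G + C content (lower panel, percent; circles are medians of the 50 bp on each side of the summit with quartiles, squares are medians of windows 500 bp away), by block of rank. The share was 40% and 46% in the first and second block of 50 ranks and 8% in the next, and median G + C at the summit was 43.1%, 40.6% and 27.2% in the same blocks.

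The summits of the second 100 were rich in A and T. The median G + C content of the 50 bp on each side of the summit was 41.6% in the first 100 and 24.8% in the second 100, against 32.7% at the other 8994 peaks. Windows 500 bp away had medians of 49.5%, 43.1% and 44.6% in the same order, so the composition fell locally at the summit in all 3 sets and most in the second 100. At ranks 201 to 400 the median at the summit was 27.7%, so low G + C was not particular to the second 100. The word ATTTAAAA was at 15 of the second 100 summits and at 3 of the first 100, against 6.55% of the other peaks and 2.21% of coding start sites. The count of 15 includes the arms on which the word was ranked: within the second 100 it was at 9 of 37 summits there (24.3%), and at 4 of 42 (9.52%) on 3R and X, which the ranking did not use, a share nearer that of the other peaks. The TATA box letters TATAAA were at 35 of the second 100 summits and at 12 of the first 100, against 22.8% of the other peaks. Base composition and these words vary together, and the part of composition in the word counts was not tested.

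Of the other known sequences sought, some were spread unevenly and others were not. The DREF sequence TATCGATA was at 9 of the first 100 summits and 2 of the second 100, against 4.36% of the other peaks. The short unit CGATA, known from the boundary protein BEAF-32 and contained in the DREF sequence, was at 42 and 13 summits of the 2 sets, against 21.5%. The E-box CAGCTG was at 17 and 2, against 4.5%. Coding start sites held these 3 sequences at 4.48%, 23.6% and 8.77%. Core promoter motif 6 was at 3 and 2 summits and the core of motif 7 at 3 and 1, against 2.57% and 2.02% of the other peaks. The ZIPIC and TCT sequences were each at 1 and 1, against 1.09% and 1.22%. The CTCF core was at 3 and 0, CACGTG at 3 and 1 and the GATA factor sequence at 1 and 7, against 1.51%, 0.778% and 7.79%. The GAGA factor sequence GAGAGAG and the Zelda sequence CAGGTAG were at 0 of the 200 summits, which allows a share of up to 1.5% (3 counts of the total), against 0.956% and 0.356% of the other peaks, so no difference was detectable with 200 windows.

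Signal declined along a steep slope with no single break. In the reproducible list it was 85632 at rank 1, 36076 at rank 25, 21874 at rank 50, 12768 at rank 75 and 6358.2 at rank 100. Beyond that it was 4647.9 at rank 125, 4095.6 at rank 150 and 3340.4 at rank 200. The first 100 ranks thus spanned a ratio of 13.5, and the next 100 a ratio of 1.9. In the replicate lists the same ratios were 13.3 ± 1.01 and 1.92 ± 0.211 (mean ± SD, n = 3 lists). Ranks follow signal in each list, so these ratios only describe the shape of the lists.

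The step near rank 100 was the lower end of this slope. Signal at rank 90 was 1.44 times that at rank 110, about the ratio of 1.43 between ranks 40 and 60, whereas ranks 140 and 160 differed 1.08 times and ranks 190 and 210 differed 1.05 times. In the replicate lists the 4 ratios were 1.48 ± 0.127 for ranks 90 and 110, 1.36 ± 0.07 for ranks 40 and 60, 1.11 ± 0.0173 for ranks 140 and 160 and 1.07 ± 0.0115 for ranks 190 and 210 (n = 3 lists). Stretches of 20 ranks were compared where their centre lay at ranks 21 to 190. The steepest of these was centred on rank 75 in the reproducible list, where signal differed 2.04 times. In replicates 1, 2 and 3 it was centred on ranks 74, 87 and 73. The top of the list, outside this comparison, was steeper, with 85632 at rank 1 and 38163 at rank 21. Each replicate list also fell more over those top ranks than over its steepest compared stretch. The largest fall between neighbours at ranks 51 to 150 was at rank 65, the sqd peak with 17300, against 15082 at rank 66, the Grip84 and car peak, a ratio of 1.15. The next falls, after ranks 76 and 79, were 1.09 times each, so over ranks 51 to 150 the signal did not drop at any one place. In all, 97 of the 200 peaks had at least 2 times the signal of rank 200, and 96 ± 6.56 did in the replicate lists.

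**Figure D2:**
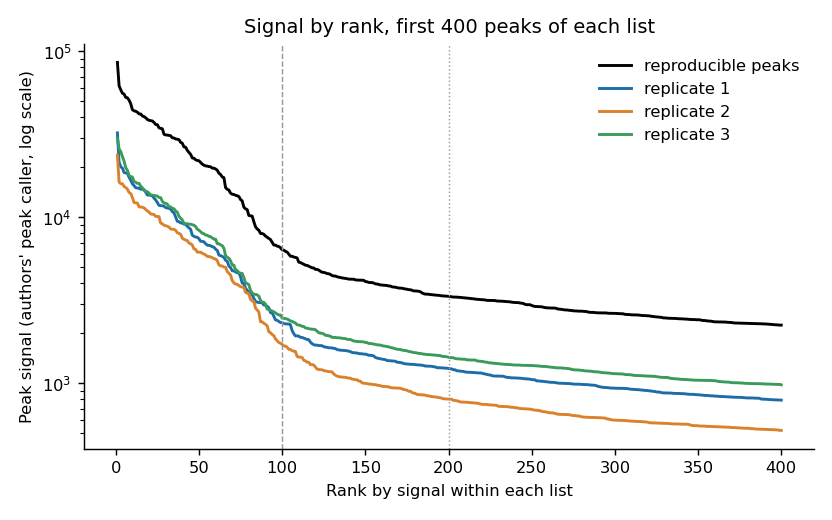
Peak signal (vertical, log scale, in the units of the authors' peak caller) against rank within each list (horizontal) for the first 400 reproducible peaks and the first 400 peaks of each replicate list. All 4 curves are steep to about rank 100 (dashed line) and shallow by rank 200 (dotted line), with the reproducible list at 85632, 6358.2 and 3340.4 at ranks 1, 100 and 200; heights are not compared between lists.

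Width changed within the steep stretch of signal. Every peak at ranks 1 to 83 was at least 938 bp wide, the peak at rank 84, in an intron of the gene px, was 534 bp, and of the 117 peaks from there to rank 200 only 9 reached 900 bp. The median was 1310.5 bp in the first 100 and 560 bp in the second 100, against 376 bp for the other 8994 peaks. At ranks 201 to 400 it was 505.5 bp. By blocks of 50 ranks the medians were 1379, 1170, 547 and 566.5 bp. In the replicates' own intervals over these summits, the medians of the first 100 and the second 100 were 1197 and 527 bp in replicate 1, 1290 and 549 bp in replicate 2, and 1009.5 and 450.5 bp in replicate 3. Width and signal come from the same peak caller and are not independent of each other.

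The 2 widest intervals each covered 2 of the 200 summits. The widest, 2839 bp, held the summits of CG7841 (rank 43, signal 25274) and of gdl with gdl-ORF39 (rank 46, signal 22733). The next, 2659 bp, held those of sqd (rank 65), which encodes an RNA-binding protein of the hnRNP family, and of rin (rank 73, signal 13455), which encodes the fly G3BP protein of stress granules. After them came 2647 bp at Cox11 and asRNA:CR44793 (rank 77, signal 11488), 2285 bp at CG15435 and mRpL27 (rank 4), and 2093 bp at Ssl1 and Chro (rank 16, signal 40727). In all, the 200 peaks lay in 194 intervals, with 12 of them paired in 6 shared intervals. The pairs beyond those at CG7841 and sqd were px with CG11362 (ranks 68 and 78), IPIP with slmo (ranks 69 and 99), dtn (ranks 82 and 83) and the lncRNA:Vinr locus (ranks 115 and 129). Each summit took the rank and signal of the highest replicate peak over it, so peaks that share an interval were given 1 rank and signal in each replicate. The weaker of a pair was thus placed as high as the stronger. For example, the peaks at ranks 69 and 99 were both given ranks 73, 79 and 66 in replicates 1, 2 and 3. The narrowest peaks all belonged to the second 100, at 432 bp for rank 190, 434 bp for rank 168, 436 bp at Tcs5 and CHMP2B (rank 123), 444 bp at CG1635 (rank 171) and 449 bp at CG7988 and CG7183 (rank 195).

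**Figure D3:**
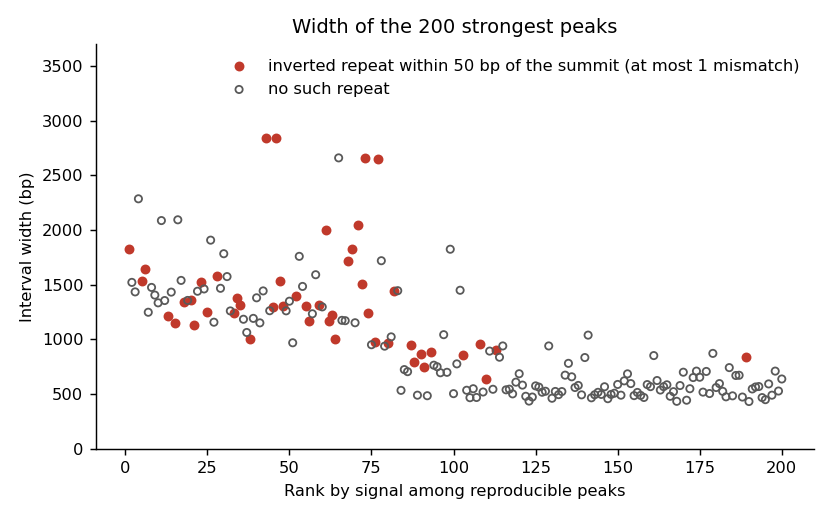
Interval width in bp (vertical) of each of the 200 peaks against its rank by signal (horizontal), with filled points for peaks that hold the inverted repeat within 50 bp of the summit at no more than 1 mismatch and open points for the others. All peaks to rank 83 are at least 938 bp wide, most later ones are narrower than 900 bp, and 43 of the 48 filled points are at ranks 1 to 100.

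Most of the 200 summits lay at promoters, and the first 100 nearly all did. A TSS was within 500 bp of 167 summits, 83.5% (77.7% to 88%), against 57.4% of the other peaks and 57.9% of all reproducible peaks. In the second 100 the count was 69 (59.4% to 77.2%). The summits of the first 100 were also closer to the start site, at a median of -49.5 bp, with 77 of 98 within 100 bp. In the second 100 the median was -132 bp with 23 of 69 within 100 bp, and for the other peaks it was -80 bp with 50.8% within 100 bp. Peaks at ranks 201 to 400 were near the second 100, with a TSS at 70% and a median of -117.5 bp. Of the 167, 149 lay upstream of their nearest TSS.

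**Figure D4:**
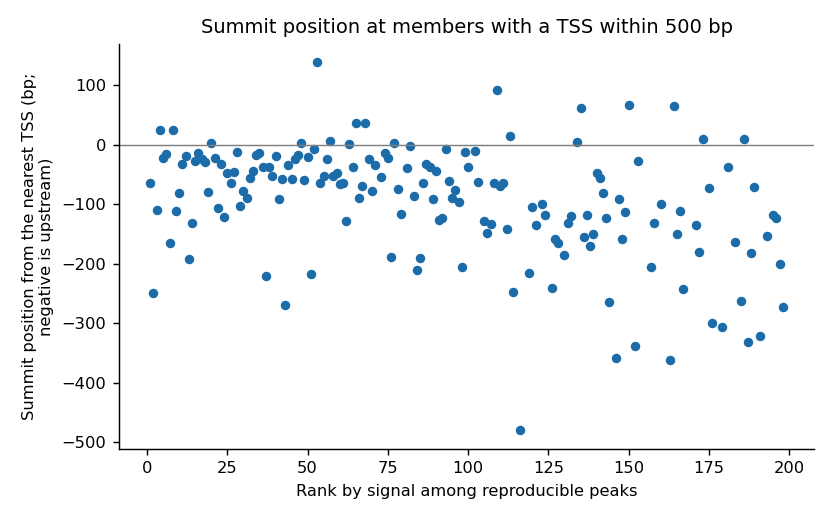
Position of the summit relative to the nearest start site in bp (vertical, negative is upstream) against rank by signal (horizontal), for the 167 of 200 peaks with a start site within 500 bp. Points cluster just upstream of 0 to about rank 100, with a median of -49.5 bp, and spread upstream after it, with a median of -132 bp.

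Shared promoters were common. At least 2 genes had a start site within 500 bp of 78 summits (39%), against 24.6% of the other peaks and 25% of all reproducible peaks, and 61 summits (30.5%) lay between genes transcribed away from each other, against 18.6% of the other peaks. At ranks 201 to 400 the share with at least 2 genes was 40%, so the share of 39% was not particular to the 200. Within the 200 it was 51% in the first 100 and 27% in the second 100. The first 100 held 51 of the 78 and 42 of the 61. Position does not tell which of the genes such a peak belongs to. At 6 peaks there were 3 genes. These were CG11089, CG31381 and CG3744 (rank 17, signal 40339), CG7029, the ubiquitin protease gene Usp12-46 and the glycosyltransferase gene rumi (rank 29, 31590), and CG33331, CG33332 and the nuclear exosome gene Rrp6 (rank 59, 19725). The other 3 were CG42374, Mettl5, a ribosomal RNA methyltransferase gene, and Max, which encodes the partner of Myc (rank 88, 7972.3), then CG34179, slmo and IPIP (rank 99, 6549.5), and the mitochondrial import gene Tom7 with CG33199 and CG8229 (rank 141, 4230.9).

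In all, 245 genes had a start site within 500 bp of 1 of the 200 summits, 148 of them in the first 100 peaks and 97 in the second 100. They were 1.4% of the 17489 annotated genes considered, 36.5% of which lay that close to some reproducible summit. Protein-coding genes made up 234, with 9 long non-coding RNA genes, 1 antisense RNA gene and 1 microRNA gene, mir-4974. Of the 245, 71 had only a CG number as name. The 19 gene lists took in 77 of the 245.

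Genes of the ubiquitin system were the best represented list by share, with 8 of 83 (9.64%) at the 200 peaks and 69 (83.1%) at any reproducible peak. The lists were chosen with earlier results of these data known, and their shares rest on small counts. Their order is therefore description only. Roc2, a RING subunit of cullin ubiquitin ligases, shared the peak at rank 6 (signal 52684) with Buffy, a Bcl-2 family gene of cell death. Uch, a ubiquitin hydrolase gene, was at rank 8, Diap1, an inhibitor of caspases with ubiquitin ligase activity, at rank 11, and p47, a cofactor of the p97 ATPase, at rank 18. Beyond the first 25 ranks were Usp12-46 (rank 29), the membrane-bound ligase gene Trc8 (rank 39, 28239), the Skp1 family gene SkpB (rank 62, 18399) and the COP9 signalosome gene CSN6 (rank 110, 5355.6). All but CSN6 were thus in the first 100. The proteasome itself had 2 of 50 genes (4%; 64% at any peak), Rpn7 (rank 49, 21968) and Rpt3 (rank 54, 20368), both of the regulatory particle.

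Genes of RNA polymerase II transcription followed, with 9 of 109 (8.26%; 88.1% at any peak), and 8 of the 9 in the first 100. They belonged to different complexes. Ssl1 of TFIIH was at rank 16, Cdk9, the kinase of P-TEFb that releases paused polymerase, at rank 28 (34086), and Spt20 of SAGA at rank 33 (30952). Taf6 of TFIID was at rank 41 (26531), Nelf-A of the negative elongation factor at rank 42 (26380), and Trf, a TBP-related factor, shared rank 57 (20130) with MED20 of Mediator. IntS12 of the Integrator complex was at rank 60 (19524), and Elp4 of Elongator at rank 111 (5331.6).

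Chromatin protein genes numbered 7 of 139 (5.04%; 88.5% at any peak), 3 of them in the first 100. Chro, a chromodomain protein of interbands and the spindle, shared the Ssl1 peak, Mnn1, which encodes menin, was at rank 20, and ash1, a histone methyltransferase of the trithorax group, shared the Taf6 peak. In the second 100 were the Polycomb gene ph-p (rank 116, 5064.4), whose start site was 480 bp from the summit, Sirt6 and pont (rank 121, 4841), and the insulator protein gene Cp190 (rank 137, 4289.5). G9a, a histone H3 lysine 9 methyltransferase gene outside the list and named after its value was seen, shared rank 12 (43441) with CG3038.

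Cell cycle, replication and repair genes numbered 9 of 203 (4.43%; 82.8% at any peak). Besides Cdk9, they were the phosphatase gene PpV (rank 13), Det (rank 19), and the gamma-tubulin ring complex genes Grip91 (rank 36, 29582) and Grip84 (rank 66, 15082). CycC, a cyclin of the Mediator kinase module, was at rank 48 (22166), the origin recognition gene Orc4 at rank 86 (8344.9), the checkpoint clamp loader gene Rad17 at rank 134 (4349.2) and CycJ at rank 140 (4233.7). Nuclear pore and export genes were Rae1 (rank 21) and Nup62 (rank 50), 2 of 55 (3.64%; 85.5% at any peak).

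Mitochondrial genes were spread over the first and the second 100. The mitochondrial ribosome had 5 of 73 genes (6.85%; 87.7% at any peak), with mRpL27 at rank 4, mRpS10 at rank 92 (7446.9), mRpL41 at rank 106 (5812.9), mRpL23 at rank 135 (4331.6) and mRpS23 at rank 149 (4166.7). Import, dynamics and gene expression had 4 of 53 (7.55%; 67.9% at any peak). Opa1, needed for inner membrane fusion, was at rank 7. The others were the mitophagy kinase gene Pink1 (rank 113, 5206.7), the protease gene Lon (rank 132, 4418.4) and Tom7. Oxidative phosphorylation had 3 of 92 (3.26%; 69.6% at any peak), all in the first 100. They were UQCR-C1 of complex III at rank 48, and ND-B14.7 (rank 63, 18074) and ND-18 (rank 70, 13746) of complex I. The peroxisome had 1 of 15 genes (86.7% at any peak), Pex19, a receptor for membrane proteins of the organelle.

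Genes of lysosomes and autophagy numbered 6 of 106 (5.66%; 66% at any peak). The cathepsin gene CtsB was at rank 22, the lysosomal enzyme receptor gene Lerp at rank 60, and car, the fly Vps33A of the HOPS tethering complex, at rank 66. The proton pump genes Vha26 (rank 79, 11105) and Vha68-2 (rank 91, 7563.9) and the GARP complex gene Vps52 (rank 111) completed the list. The list of vesicle traffic and secretory pathway membrane proteins had 2 of 139 (1.44%), the coat genes, AP-2mu (rank 49) and alphaCOP (rank 94, 7051.7). This is a share near the 1.4% of all genes. Among genes at any reproducible peak it was 2 of 115, against 245 of 6379 for genes of all kinds.

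Genes of protein synthesis differed by list. Of the cytosolic ribosomal protein genes, 1 of 92 (1.09%) was at the 200 peaks, RpS3 at rank 85 (8484.9), a share near the 1.4% of all genes, and 91.3% were at some reproducible peak. Among genes at any reproducible peak it was 1 of 84, against 245 of 6379 for genes of all kinds. Translation factors had 2 of 89 (2.25%; 71.9% at any peak), eIF4H1 at rank 24 and eIF4EHP, a cap-binding protein that blocks translation, at rank 112 (5263). The splicing list had 1 of 57 (1.75%; 82.5% at any peak), snRNP-U1-70K at rank 75 (12768), a share near the 1.4% of all genes. Of its genes at any reproducible peak it was 1 of 47, against the same 245 of 6379. That list does not hold every splicing gene: SNRPG, which encodes a core protein of the small nuclear ribonucleoproteins (rank 14, 41897), and noi, a U2 component gene (rank 79, 11105), were also at these peaks and are named after their values were seen. The ribosome biogenesis list had 3 of 50 (6%; 82% at any peak), Surf6 at rank 10, Rrp6 at rank 59 and wcd at rank 64 (17469). The kinase and cell death list had 4 of 100 (75% at any peak), which were Nuak, Buffy, Diap1 and Mkk4, a kinase upstream of JNK (rank 158, 3934.9).

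By share of its genes, the long non-coding and antisense RNA list was the least represented with any member, at 0.408% (13.2% at any peak). Among genes at any reproducible peak it was 10 of 324, against 245 of 6379 for genes of all kinds. On that base the lists of cytosolic ribosomal proteins (1 of 84), vesicle traffic (2 of 115) and splicing (1 of 47) were lower. Of 2448 such RNA genes, 10 were at the 200 peaks, 8 of them in the second 100. The others, lncRNA:CR42861 at rank 36 and asRNA:CR44793 at rank 77, shared their peak with the protein-coding genes Grip91 and Cox11. At the peak of rank 185 (3461.2), lncRNA:enrr shared the summit with the neuronal RNA-binding protein gene elav. Also in the second 100, lncRNA:CR44463 shared its peak with mRpL41, lncRNA:CR44149 with brwl and lncRNA:CR45593 with Ama. The peaks of lncRNA:CR31044, lncRNA:CR44339, lncRNA:CR45595 and lncRNA:CR31840 had no other gene. Of 601 tRNA, snRNA and snoRNA genes, 0 were at the 200 peaks, which allows a share of up to 0.499% (3 counts of the total), and 9.82% were at any peak.

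A few more genes of the second 100 lay outside the lists and are named after their values were seen, with no count or theme drawn from them. They are scb, an integrin gene (rank 131, 4420.2), the cGMP-dependent protein kinase gene for (rank 146, 4174.7), E(spl)m7-HLH, a Notch target (rank 163, 3873.8), and msi, which encodes the RNA-binding protein Musashi (rank 167, 3791.8). BigH1, the embryonic linker histone gene, shared the Rad17 peak at rank 134.

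Peaks without a TSS within 500 bp were 2 in the first 100 and 31 in the second. The first pair was rank 72 (13553), in an intron of Mgtor, a nuclear pore basket protein gene, 555 bp from a start site, and rank 80 (10235), in a non-coding exon of CkIIbeta, which encodes the regulatory subunit of casein kinase 2. Each held the inverted repeat with 1 mismatch. Of the 31 in the second 100, 19 lay in introns, 10 between genes, 2 in non-coding exons and 0 in coding exons. They were 515 to 20109 bp from the nearest start site, with a median of 1393 bp, and 0 of them held the repeat with at most 1 mismatch, which allows a share of up to 9.68% (3 counts of the total), against 5 of the 69 at promoters.

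The 19 intronic peaks of the second 100 began with ush, which encodes a cofactor of GATA factors, next after rank 100 (6329.4), and CG11050 (rank 104, 5989.1). They went on with the eIF4E kinase gene Lk6 (rank 122, 4803.2), CG32772 (rank 125, 4647.9), the GAGA factor gene Trl (rank 133, 4377.5) and the HmgD and HmgZ genes of DNA-binding HMG proteins (rank 154, 4035.9). After them came the Atrophin gene Gug (rank 155, 4011.1), the kinase gene Tlk (rank 156, 3965.8), the histone demethylase gene Kdm2 (rank 159, 3907.4) and sbb (rank 161, 3886.4). These 10 introns belong to genes of unlike functions, and 2 of them have only a CG number as name. The remaining 9 were in CG3277 (rank 174, 3691.9), CG9663 (rank 177, 3655.6), Alh (rank 178, 3629.4), the adherens junction gene cno (rank 180, 3594.6), the NuRD complex gene simj (rank 182, 3577.9), Lrch (rank 184, 3501), the mRNA decay gene Tis11 (rank 194, 3384.3), Hyls1 and chif (rank 199, 3348.4), and the TIF1 family gene bon (rank 200).

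The 10 peaks between genes were at ranks 117 (5004.1), 118 (4950.1), 145 (4178.1), 151 (4082.6), 162 (3884.8), 168 (3788.2), 169 (3761.8), 170 (3744.6), 190 (3410.8) and 192 (3391.2). The closest to a start site was rank 170, at 670 bp from RasGAP1, then rank 192, at 859 bp from the Polycomb gene ph-d, and the farthest was rank 168, at 11921 bp from CG13323. The 2 in non-coding exons, at ranks 115 (5123.6) and 129 (4518.8), shared the interval in lncRNA:Vinr. The median G + C content of the 31 summits was 26.7%.

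The 20 peaks at ranks 91 to 110 show the lower end of the steep stretch. Vha68-2 at rank 91 was 744 bp wide and ranked 86, 95 and 96 in replicates 1, 2 and 3. The peak of mRpS10 and Art3 at rank 92 was 485 bp wide and ranked 96, 102 and 85. PDZ-GEF, a gene of a Rap guanine nucleotide exchange factor, had signal 7327.1 at rank 93, held an exact repeat and ranked 92, 84 and 159, the widest disagreement of the first 100. The peak of alphaCOP and CG13919 at rank 94 had signals of 2353.6, 1675 and 2993.3 in replicates 1, 2 and 3. CG5273 (rank 95, 6793.2) ranked 85, 104 and 115, and CG5447 (rank 96, 6785.7) ranked 95, 93 and 109. The peak of CG1265 and ago, an F-box gene of a ubiquitin ligase that lowers Cyclin E and Myc, had 6693.3 at rank 97 and was 1043 bp wide. Widths over these 7 ranks ran from 485 to 1043 bp, and 1 of the 7 was over 900 bp.

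Across rank 100 the values went on without a gap. The peak of cib, an actin-binding beta-thymosin gene, had 6655 at rank 98, and the interval of IPIP and slmo followed at rank 99. Ugalt, a UDP-galactose transporter gene, had 6358.2 at rank 100 with a width of 504 bp, and the ush intron had 6329.4 at the next rank with 776 bp. The molybdenum cofactor gene cin had 6223.7 at rank 102 with 1449 bp, the widest peak of the second 100. CG14464 at rank 103 (6158.5) held an exact repeat and ranked 183, 124 and 81 in the replicates. The peak in an intron of CG11050 had 5989.1 at rank 104, CG18549 had 5819.2 at rank 105 and mRpL41 with lncRNA:CR44463 had 5812.9 at rank 106. These 3 lacked the repeat and had 22.8%, 23.8% and 23.8% G + C at the summit. Fkbp14, an endoplasmic reticulum prolyl isomerase gene, had 5748.7 at rank 107, fan 5721.9 at rank 108, CG11309 with CG7632 5677.4 at rank 109 and CSN6 5355.6 at rank 110. Of these 4, fan and CSN6 held exact copies of the repeat, with 42.6% and 50.5% G + C, while Fkbp14 and CG11309 did not, with 18.8% and 24.8%. Summits with and without the repeat were thus present on either side of rank 100.

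The replicates placed the first 100 alike. Every one of the 200 summits lay in a peak of each replicate list of 30000, and all of ranks 1 to 100 were among the first 200 of all 3 replicates, with worst ranks of 106, 116 and 159 in replicates 1, 2 and 3. Of the next 50 it was 47, and of the last 50 it was 9. Over the 200 peaks, 156 (78%, 71.8% to 83.2%) were among the first 200 of all 3 and 197 among the first 400. The limit of 200 falls within the last block, where small shifts carry a peak across it.

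The top of the list shows the scale of these shifts. CG3764 was at rank 1 in every replicate, with signals of 32184, 23698 and 29871 in replicates 1, 2 and 3. Nuak, an AMPK-related kinase gene, had 20167, 15907 and 25832 and ranked 3, 4 and 2, and the peak of CG1317 and CG8993 had 18455, 15312 and 24854 and ranked 6, 5 and 3. The peak of CG15435 and mRpL27 had 18378, 15919 and 21770 and ranked 7, 3 and 5, and CG7275 had 21384, 16261 and 17536 and ranked 2, 2 and 9. Each of the 5 was thus among the first 10 in every replicate.

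Spearman's rho of replicate signal over the first 100 peaks was 0.984 for replicates 1 with 2, 0.922 for 1 with 3 and 0.926 for 2 with 3. Over the second 100 it was 0.641, 0.351 and 0.345. These are descriptions over 100 peaks each, which share the control file and the list that chose them and in part an interval, and the second 100 covers a far narrower range of signal. The gap between a peak's best and worst replicate rank had a median of 12 in the first 100 and 46 in the second. It was over 100 at 17 peaks, all in the second 100, and the worst rank was in replicate 3 at 11 of them, in replicate 2 at 4 and in replicate 1 at 2. The 5 largest gaps were at an sbb intron (rank 161; 108, 140 and 497 in replicates 1, 2 and 3), an Lrch intron (rank 184; 121, 175 and 462), a cno intron (rank 180; 113, 183 and 440), lncRNA:CR31840 (rank 173; 119, 169 and 318) and the mitochondrial carrier gene SCaMC (rank 153; 153, 110 and 289). Replicate 3 gave the lowest place to each of these 5, and 3 of them lay in introns away from any start site.

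**Figure D5:**
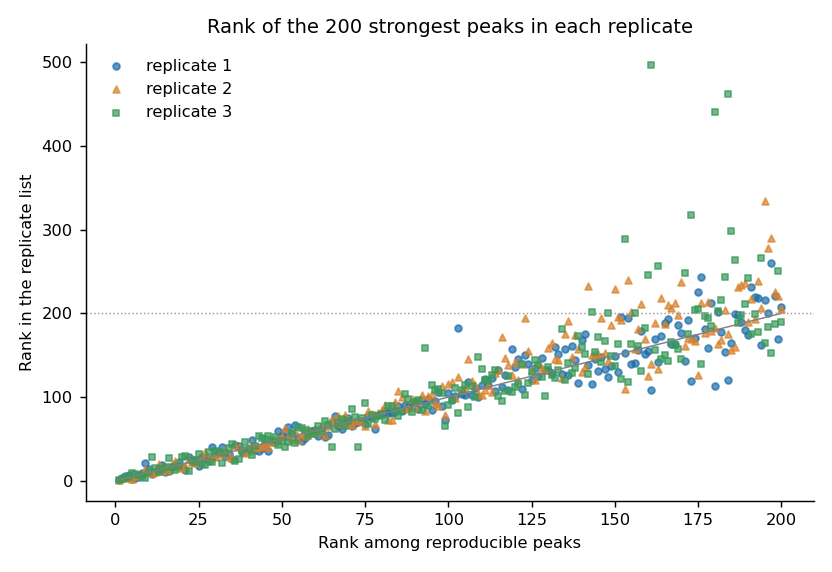
Rank of each of the 200 peaks in the list of replicate 1, 2 and 3 (vertical) against its rank among the reproducible peaks (horizontal), with the line of equal ranks and a dotted line at rank 200. Points stay close to the line over the first 100, with worst ranks of 106, 116 and 159, and fan out over the second, where the highest points, at 497, 462 and 440, belong to replicate 3.

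Strong peaks also stood near one another. In the first 100, 14 peaks had another of the first 100 in a separate interval within 5000 bp, and in the second 100 2 did, against a median of 2 and a range of 0 to 10 over the other 89 blocks of 100 ranks. The 7 pairs joined CG17141 with the Usp12-46 peak (3167 bp apart), Cdk9 with CG17807 (1783 bp), unc-119 with CG2059 (4587 bp) and Gk1 with NitFhit (2331 bp). The others joined Blos4 with galla-2 (3772 bp), CycC with the Rrp6 peak (3794 bp) and Nup62 with wcd (3074 bp). Across the 2 sets, the second-strongest peak, at Nuak, lay 2073 bp from the peak of Sirt6 and pont, and that of CG1317 lay 1568 bp from mRpL23. By arm, the 200 peaks included 31 on X, 36 on 2L, 42 on 2R, 38 on 3L and 53 on 3R. These arms held 18.3%, 18.4%, 18.3%, 21.6% and 22.7% of all reproducible peaks. On chromosome 4, which held 0.62% of all reproducible peaks, there were 0, and no difference was detectable with 200 peaks.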

How the data were processed

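Peak lists in narrowPeak format were deposited by the authors: 1 for each of 3 replicates with 30000 peaks each, 1 pooled list, which was not used here, and 1 list thresholded on the irreproducible discovery rate with 9194 peaks. Per the text files deposited with them, each replicate list was made from that replicate's alignments to dm6 and 1 control file, and the thresholded list from the replicate and pooled lists. The aligner, peak caller and threshold were not given in the sources used here. All signal values came from the authors' peak caller. Their scale is not stated, so they served only for ranking and description inside 1 list. Interval starts, ends and summit offsets were used as deposited by the authors. Read depth per sample is unknown.

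The 200 lines with the highest signal were taken, and the summit was the interval start plus the offset. A summit took its rank and signal in a replicate from the highest peak of that list over it. Start sites came from the RefSeq annotation of the same assembly (17489 genes, 23316 positions), and sequences from its genome. All words and motifs were sought on both strands in windows of 50 bp on each side of the summit. For the 8-base words, 2R was left out of the ranking, and 3R and X were counted apart. A word planted in simulated windows was ranked first. Members, gene lists and motifs were chosen with earlier results of these data known, and the inverted repeat, its mismatches and the 900 bp mark were chosen after seeing the data. Members were named by every gene with a start site within 500 bp. Values were given for ranks 1 to 5 and 91 to 110, the 5 widest, 5 narrowest and 5 largest replicate rank gaps, peaks with no gene or at least 3, the printed sequences and list members, other genes being named as chosen after their values were seen. Intervals beside shares are 95% Wilson intervals, and the share that a count of 0 allows is 3 counts of the total. Spreads are standard deviations over 3 replicates, which share 1 control file. Alternatives were other start site windows, list lengths, summit windows, match rules and each replicate left out. Python 3.11.15, numpy 2.4.6, pandas 2.3.3, scipy 1.17.1 and matplotlib 3.10.9 were used.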

Additional observations from a re-analysis of the deposited data

How the results depend on the processing

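The share of the 200 peaks at a start site, 83.5%, was 77.5% with a window of 250 bp, 89% with 1000 bp, 98% for the first 100 peaks and 76.8% for the first 400. The 245 genes were 148 for the first 100 peaks and 465 for the first 400. The median width of 835.5 bp was 1310.5 bp for the first 100 peaks, 564.5 bp for the first 400 and 728 bp in the replicates' own intervals. The share placed alike by all replicates, 78%, was 90% for the first 100 peaks at a limit of 100 ranks, 98.5% at a limit of 400 ranks, and 85.5% to 94.5% with 1 replicate left out. The ratio of signals at ranks 90 and 110, 1.44, was 1.51 to 1.67 with 1 replicate left out. The share of summits with ATTTAAAA, 9%, was 3% for the first 100 peaks, 3.5% within 25 bp and 17% within 100 bp. The share of the first 100 with the inverted repeat, 43%, was 20% with the whole repeat within 25 bp, 55% within 100 bp, 22% for exact copies and 58% with 2 mismatches, against 0.511%, 1.69%, 0.233% and 5.15% of the other peaks. These alternatives for the repeat were chosen after seeing the data. Other list lengths, windows and mismatch limits take other peaks or bases by construction. With 1 replicate left out, a peak had to be placed alike in fewer lists, also by construction. For the other values without a replicate the cause was not tested. The other 35 values stayed within the replicate spread or counting interval of the main value or, for counts of genes, within 1.5 times it. Leaving out a replicate kept peaks of a list made from all 3. No paired analysis was possible because there is only 1 group. Read depth is unknown and embryos lacking the tagged protein were not analysed here, which limits every value.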
